A study of Mus musculus with 45 samples.

Results

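The effect of homozygous loss of *Shank3* exons 14–16 on the striatum was examined by comparing the striatal transcriptomes of 5 homozygous mutant (Shank3-HM) mice and 5 wild-type (WT) mice, which are 10 of the 45 samples of the series. The genes tested were the 16482 of 18135 listed genes whose mean over the 15 striatum samples was 10 or more. Those whose values differed between these groups are described, beside others that did not pass and were named by rank, level, or function. In the series, mRNA was sequenced from prefrontal cortex, hippocampus, and striatum of WT, heterozygous (Shank3-HT), and Shank3-HM mice, with 5 samples per genotype and region. All mice were C57BL/6J males of 13 weeks. The sample labels call the homozygous mutants knock-out, and the value columns code them as KI. WT, Shank3-HT, and Shank3-HM pups were reared together by their mothers, so that genotype was the only stated difference between the groups. The tissue was bulk striatum, in which fewer cells of a type and less RNA per cell cannot be told apart. The labels name replicates but no individual animals, so that p values measure the spread between these samples.

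SHANK3 is a scaffold of the excitatory postsynaptic density, where it links glutamate receptor complexes to HOMER proteins and the actin cytoskeleton. It is strongly expressed in the striatum, whose principal cells are GABAergic spiny projection neurons that receive glutamatergic input from the cortex and thalamus and dopaminergic input from the midbrain. The D1 receptor, substance P (*Tac1*), and dynorphin mark the spiny neurons of the direct pathway, and the D2 receptor, the adenosine receptor of *Adora2a*, and enkephalin (*Penk*) those of the indirect pathway.

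The removed exons are shown because they define the mutant allele. They are given from the 22-exon transcript Shank3-203 of GENCODE M21, and the numbering of the study was assumed to follow such a transcript. All are coding, on the plus strand of chromosome 15 (GRCm38), in lower case throughout.
exon 14, chr15:89531626-89531708: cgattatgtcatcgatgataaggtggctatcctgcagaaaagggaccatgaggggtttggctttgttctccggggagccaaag
exon 15, chr15:89532095-89532219: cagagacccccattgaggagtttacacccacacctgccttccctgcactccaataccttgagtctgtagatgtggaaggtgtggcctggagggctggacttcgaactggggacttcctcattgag
exon 16, chr15:89532329-89532461: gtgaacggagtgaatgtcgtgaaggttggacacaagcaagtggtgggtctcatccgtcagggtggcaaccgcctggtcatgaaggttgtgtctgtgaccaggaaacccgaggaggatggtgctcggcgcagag
Together they hold 341 bases, which leaves a remainder of 2 when divided by 3. When exon 13 was joined to exon 17 in the sequence, the reading frame met a stop after 658 codons, against 1805 codons in the full transcript.

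*Shank3* itself was measured at 12189, 12644, 12706, 12739.8, and 11309 in the 5 WT samples and at 6061, 5883, 6242, 5922, and 4569 in the 5 Shank3-HM samples. The groups did not overlap, and Shank3-HM replicate 5 was the lowest of all. The Shank3-HM mean was 46.6% of the WT mean, a log2 fold change of −1.11 (two-sided exact permutation p = 0.00794, the smallest that 5 against 5 samples allow). Shank3-HT samples lay between, at 9243, 9323, 8355, 8746, and 7959. The values are sums over the transcripts of a gene, so that they do not show which exons the remaining *Shank3* mRNA held.

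Marker genes of spiny projection neurons were high in all 10 samples. *Drd2*, for example, was measured at 8739.8, 9008, 8203, 8569, and 6469 in WT and 7931, 8147, 8634, 8936, and 7663 in Shank3-HM mice, against WT means of 27.6 in the cortex and 62.5 in the hippocampus. One WT sample stood apart. WT replicate 5 had the lowest values of *Drd1*, *Drd2*, *Adora2a*, *Pde10a*, and *Penk* among the WT samples, and its summed level over 18 spiny projection neuron markers was 359307, where the other WT samples had 445738 to 469471 and the Shank3-HM samples 417506 to 456687. Its summed level over 24 markers of cortical projection neurons was 106935, the highest of the WT samples, which began at 90596, while Shank3-HM samples ranged from 88515 to 107808. Among the Shank3-HT samples, which share in the estimate of spread, replicate 5 stood apart, with a summed level of choroid plexus and ependymal markers of 71889 against 1439 to 2379 in the other Shank3-HT samples. Results that rest on these libraries are given with and without them where a call or direction changed. The median of a gene list, given below as a description, crossed 0 for 12 of the 31 lists when single samples were left out or values were scaled otherwise.

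**Figure D1:**
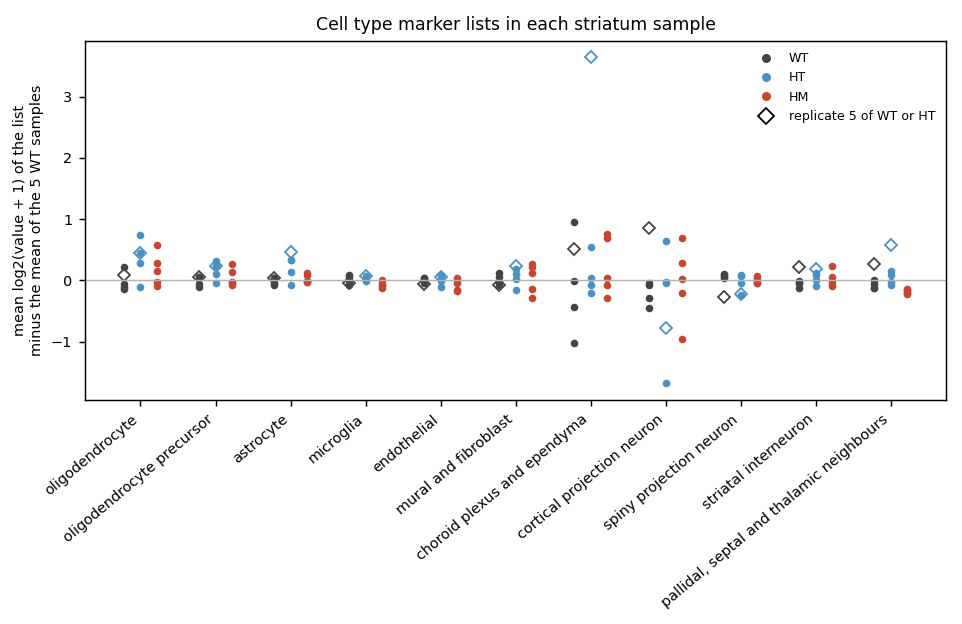
Mean log2(value + 1) over each cell type marker list, minus the mean of the 5 WT samples, on the vertical axis, for each striatum sample (points, 5 per genotype) and list (horizontal axis). The open diamonds are replicate 5 of WT, which is lowest for spiny projection neuron markers and highest among WT for cortical projection neuron markers, and replicate 5 of Shank3-HT, which is far above the others for choroid plexus markers.

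At an adjusted p under 0.05 (limma with Benjamini-Hochberg adjustment over all 16482 genes, on log2(value + 1)), 30 genes differed between Shank3-HM and WT striatum, which is 0.182% of the genes tested. These are referred to as the called genes. Of these, 26 were higher (0.158%) and 4 were lower (0.0243%), *Shank3* among the latter. The 29 genes beside *Shank3* lay on 14 chromosomes, 1 of them on chromosome 15. For the 26 higher genes, the fold change ranged from 1.259 to 3.49 with a median of 1.54, and 5 exceeded 1 on the log2 scale. All 5 Shank3-HM samples lay above all 5 WT samples for 25 of the 26, and all 5 lay below for the 3 lower genes beside *Shank3*, where 1.1% and 0.752% of all genes tested showed such a separation, and 1.86% in either direction. The called genes were chosen on these same values, so that their separation is a description and no further evidence. The median log2 fold change over all genes was 0.00072. At an unadjusted p under 0.05, 1225 genes (7.43%) were found, where 824 would be expected by chance.

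The size and the balance of this gene set depended on single libraries. Without Shank3-HM replicate 2, 12 genes passed, and *Mir670hg*, *Sema4a*, *Chrnb4*, *Hhipl1*, and *Scrt2*, which passed in the other 9 such fits, did not (limma, adjusted p = 0.0523, 0.0536, 0.0544, 0.0585, and 0.0585). Without WT replicates 1, 3, and 4, 19, 19, and 18 genes passed, and without WT replicate 5 there were 31, of which 23 were among the original 30. Leaving out WT replicate 5 moved the split to 23 higher and 8 lower genes, and quantile normalization also gave 23 higher and 8 lower. Without WT replicate 5, *Ikzf3*, *Tagln*, *Scarb1*, *Mas1*, *Srxn1*, *Inhba*, and *Dmkn* no longer passed, with limma adjusted p values of 0.0527, 0.0597, 0.0613, 0.0672, 0.092, 0.101, and 0.101 and log2 differences of 0.88, 0.58, 0.34, 0.70, 0.33, 0.43, and 0.61. Without Shank3-HT replicate 5, 31 genes passed, 26 of them among the 30, and *Srxn1*, *Scarb1*, *Mas1*, and *Dcaf7* did not (limma, adjusted p = 0.0504 for each). Beside *Shank3*, 9 genes (*Gdpd5*, *Lamp5*, *Rimbp2*, *Kremen1*, *Nxf7*, *Snai3*, *Gpx6*, *Nrn1l*, and *Nptx2*) passed in each of the 10 fits that left out a WT or Shank3-HM sample, 9 in 5 to 9 of these fits, and 11 in fewer than 5.

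**Figure D2:**
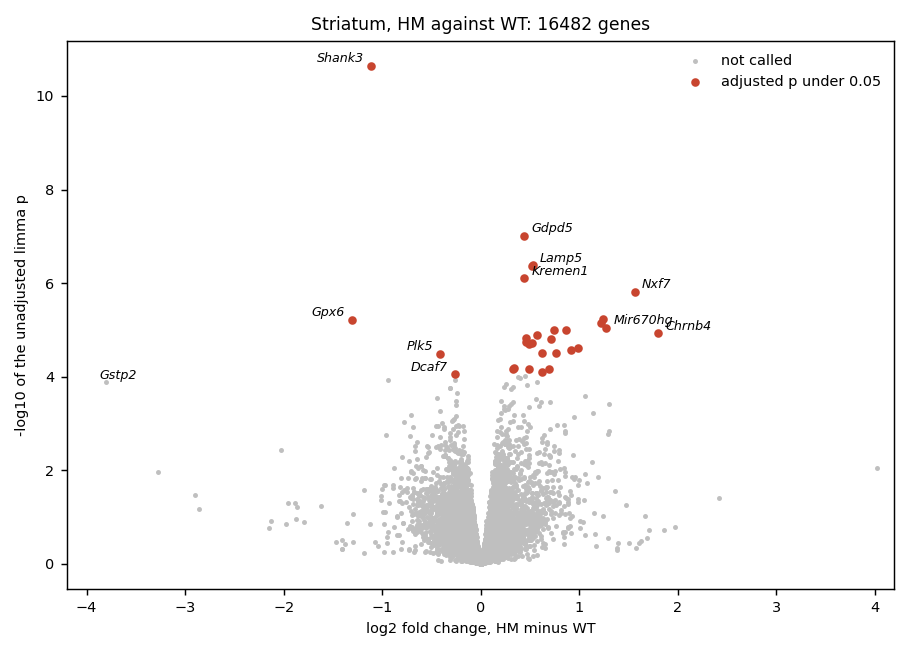
Log2 fold change between Shank3-HM and WT striatum (horizontal axis) against −log10 of the unadjusted limma p (vertical axis) for the 16482 genes tested, with the 30 genes at an adjusted p under 0.05 in red. Red points lie mostly on the right, 26 against 4, and *Gstp2* at the far left is not among them.

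Among genes of the presynapse and of synapse organization, 3 rose. *Rimbp2*, which couples presynaptic calcium channels to the release machinery, was measured at 3882, 4117, 3778, 4091, and 4754 in WT and 5821, 6183, 5889, 5789, and 5802 in Shank3-HM samples. The groups were separate, with WT replicate 5 the highest of its group, and the log2 fold change was 0.52 (limma, adjusted p = 0.00178). *Nptx2*, a secreted pentraxin that clusters AMPA receptors and is induced by activity, had values of 492, 525, 537, 598, and 742 in WT and 1157, 873, 836, 884, and 1088 in Shank3-HM samples. Here too every Shank3-HM sample was higher than every WT sample, by 0.74 on the log2 scale (limma, adjusted p = 0.0142). *Lgi2*, a secreted ligand of ADAM-family synaptic receptors, rose by 0.49 (limma, adjusted p = 0.0175) and passed in 6 of the 10 fits without a sample. Over the 62 genes of this list, 8 were higher and 1 was lower at an unadjusted p under 0.05 (12.9% and 1.61%), beside 4.02% and 3.42% of all genes tested. The median log2 fold change was 0.02, with a range of 0.0002 to 0.07 over the alternatives.

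Of 67 genes of the excitatory postsynapse, *Shank3* alone passed the adjusted threshold, which 0.182% of all genes passed. At an unadjusted p under 0.05, 3 were higher (4.48%) and 9 were lower (13.4%), *Shank3* included, beside 4.02% and 3.42% of all genes tested. The list median was −0.04. *Ddn*, the postsynaptic protein dendrin, had a log2 difference of −0.31 (limma, adjusted p = 0.0679), which became −0.35 with an adjusted p of 0.0398 without WT replicate 5. The NMDA receptor subunit gene *Grin2a* differed by 0.20 (limma, adjusted p = 0.182). *Homer1*, which binds SHANK proteins, was measured at 7819, 8590.3, 9008, 9068, and 8422 in WT and 7961, 7174, 7379, 7594, and 7595 in Shank3-HM samples, with overlapping groups and an adjusted p of 0.604 by limma. The paralogs *Shank1* and *Shank2* had log2 differences of −0.07 and −0.07 (limma, adjusted p = 0.963 and 0.895), and *Homer2* and *Homer3* of −0.11 and 0.03. In *Shank1* and *Homer2*, WT replicate 5 had the highest value of all 10 samples.

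*Chrnb4*, the beta4 subunit of the nicotinic acetylcholine receptor, was measured at 8.16, 17.3, 9.54, 13.2, and 10.2 in WT and 49.4, 47.3, 43.3, 44.5, and 28.6 in Shank3-HM samples. It had the largest rise of the called genes, with a log2 fold change of 1.80 (limma, adjusted p = 0.0152), on low values, and the groups did not overlap. Without Shank3-HM replicate 2 the adjusted p was 0.0544. *Chrna3*, which lies 1591 bases away on chromosome 9 and encodes a subunit that pairs with beta4, had a log2 difference of 0.94 with all 5 Shank3-HM samples (25.0, 28.5, 33.0, 36.3, and 33.2) above all 5 WT samples (22.9, 14.4, 19.3, 8.63, and 16.7), but did not pass (limma, adjusted p = 0.36). Of the 19 acetylcholine genes tested, *Chrnb4* alone passed, and at an unadjusted p under 0.05, 3 were higher and 1 was lower (15.8% and 5.26%, against 4.02% and 3.42% of all genes).

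*Vipr1*, a receptor for the neuropeptides VIP and PACAP, rose from 765, 837, 670.0, 644, and 855 to 1159, 1034, 1002, 998, and 1198, without overlap and by 0.52 on the log2 scale (limma, adjusted p = 0.0172), and passed in 6 of the 10 fits that left out a sample. *Mas1*, the receptor for angiotensin-(1-7), was measured at 165, 151, 137, 133, and 152 in WT and 231, 225, 257, 236, and 239 in Shank3-HM samples and rose by 0.69 (limma, adjusted p = 0.0414). Although its groups were well separated, *Mas1* passed in 0 of the 10 fits that left out a sample. *Inhba*, which encodes the subunit of activin A, rose from a WT mean of 608 to 851, by 0.49 (limma, adjusted p = 0.0414), and passed in 2 of these 10 fits. Of 48 genes for neuropeptides and their receptors, 8 were higher and 0 were lower at an unadjusted p under 0.05 (16.7% and 0%, where all genes gave 4.02% and 3.42%), and the median log2 fold change was 0.09, with a range of 0.03 to 0.20 over the alternatives. Of 45 genes of activin, TGF-beta, and BMP signalling, 7 were higher and 2 were lower (15.6% and 4.44%, beside the same shares of all genes), with a median of 0.03.

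Of 46 activity-regulated genes tested, *Nptx2* and *Inhba* rose. At an unadjusted p under 0.05, 8 were higher and 1 was lower (17.4% and 2.17%, against 4.02% and 3.42% of all genes), and the list median was 0.12. It ranged from 0.00 to 0.21 when single samples were left out or values were scaled otherwise. *Ptgs2*, the inducible cyclooxygenase, was measured at 57.4, 63.7, 52.9, 75.9, and 103 in WT and 119, 123, 107, 77.5, and 111 in Shank3-HM samples, with overlapping groups and an adjusted p of 0.272 by limma.

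*Gdpd5*, a membrane enzyme that releases GPI-anchored proteins from the cell surface, gave the smallest p after *Shank3*. Its values were 1623, 1643, 1712, 1559.6, and 1534 in WT and 2122, 2164, 2313, 2108, and 2219 in Shank3-HM samples. The groups were narrow and separate, with a log2 fold change of 0.44 (limma, adjusted p = 0.000802). *Nrn1l*, a GPI-anchored relative of neuritin, rose from 26.8, 20.4, 31.8, 20.9, and 30.99 to 65.5, 53.9, 75.2, 66.5, and 49.6, by 1.22 on the log2 scale (limma, adjusted p = 0.0129). *Sema4a*, a transmembrane semaphorin, had values of 551, 553, 586, 561, and 883 in WT and 1026, 1281, 1264, 980.1, and 1093 in Shank3-HM samples. WT replicate 5 was far above the other WT samples, yet below all Shank3-HM samples. The log2 fold change was 0.87 (limma, adjusted p = 0.0142) with that sample and 0.995 without it (adjusted p = 0.00147), but *Sema4a* did not pass without Shank3-HM replicate 2 (adjusted p = 0.0536) or without the intensity trend (adjusted p = 0.0522). Of 63 axon guidance genes, *Sema4a* alone passed, and at an unadjusted p under 0.05, 3 were higher and 3 were lower (4.76% each way, near the 4.02% and 3.42% of all genes).

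*Lamp5*, a neuronal member of the lysosome-associated membrane protein family that marks sets of forebrain neurons, was measured at 3153, 3020.2, 2901, 2955, and 2496 in WT and 4434, 4004, 4487, 4143, and 3843 in Shank3-HM samples. All Shank3-HM samples were higher, by 0.53 (limma, adjusted p = 0.00178). *Lamp5* was also listed as a marker of cortical projection neurons, of whose 23 tested members 2 were higher and 1 was lower at an unadjusted p under 0.05 (8.7% and 4.35%, against 4.02% and 3.42% of all genes), with a median of −0.06. This median was 0.11 without WT replicate 5, 0.28 without Shank3-HM replicate 4, and −0.24 without Shank3-HM replicate 1, so that its sign was not stable. WT replicate 5, the WT sample with the highest cortical marker level, had the lowest *Lamp5* value, and without it the log2 fold change was 0.47 (limma, adjusted p = 0.00227).

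*Kremen1*, a receptor that removes the Wnt coreceptor LRP6 from the membrane in the presence of Dickkopf, was measured at 1096, 1092, 1028, 1016, and 1048 in WT and 1360.2, 1459.6, 1598, 1451, and 1305 in Shank3-HM samples, again without overlap. The log2 fold change was 0.44 (limma, adjusted p = 0.00261). *Kremen1* was the single gene that passed among the 58 Wnt pathway genes. At an unadjusted p under 0.05, 4 were higher and 5 were lower (6.9% and 8.62%, against 4.02% and 3.42% of all genes), with a median of −0.05. Among them, *Wnt7a* and *Wnt2* had log2 differences of −0.45 and −0.37 (limma, adjusted p = 0.21 and 0.223). *Hhipl1*, a relative of the Hedgehog-interacting protein, had values of 296, 397, 357, 359, and 368 in WT and 545, 579, 512, 525, and 475 in Shank3-HM samples and rose by 0.57 (limma, adjusted p = 0.0155).

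*Snai3* and *Scrt2* encode zinc finger repressors of the Snail superfamily. *Snai3* was measured at 34.7, 45.2, 60.1, 58.9, and 59.4 in WT and 158, 129.9, 108, 98.0, and 118 in Shank3-HM samples, and *Scrt2* at 1207, 1105, 1163, 1253, and 914 and 1544, 1662, 1511, 1506, and 1525. Both were higher in every Shank3-HM sample, by 1.24 and 0.46 on the log2 scale (limma, adjusted p = 0.0126 and 0.016). *Ikzf3* encodes Aiolos, a zinc finger factor best known from lymphocytes. It rose from 70.5, 62.5, 62.6, 47.9, and 53.1 to 161, 98.6, 103, 102, and 104, by 0.91 (limma, adjusted p = 0.0216), with Shank3-HM replicate 1 far above the rest, and passed in 4 of the 10 fits that left out a sample. In WT mice, *Ikzf3* had a mean of 59.3 in the striatum, 0.889 in the cortex, and 0.863 in the hippocampus.

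*Csdc2*, a cold shock domain RNA-binding protein, rose by 0.46 (limma, adjusted p = 0.0172) and also passed in 4 of these fits. *Nxf7*, an X-linked member of the nuclear RNA export factor family, was measured at 23.0, 52.5, 37.6, 34.5, and 33.1 in WT and 99.9, 131, 97.2, 83.3, and 120.3 in Shank3-HM samples. There was no overlap, and the log2 fold change was 1.56 (limma, adjusted p = 0.00429). *Dcaf7*, a WD40 scaffold that binds the kinase DYRK1A and cullin ligases, had the smallest change of the called genes, a log2 fold change of −0.26 (limma, adjusted p = 0.0487). Its values were 6007, 6219, 5857, 5684, and 5435 in WT and 5023, 4842, 4918, 4942, and 4619 in Shank3-HM samples, and it passed in 1 of the 10 fits that left out a sample.

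The one noncoding gene called was *Mir670hg*, on the minus strand of chromosome 2 (94160636 to 94264918, GRCm38). It was measured at 104, 109.8, 128, 95.6, and 98.2 in WT and 338, 313, 196, 181, and 312 in Shank3-HM samples. Shank3-HM replicates 3 and 4 were lower than the other 3 mutants but above all WT samples, and the log2 fold change was 1.27 (limma, adjusted p = 0.0142). Its locus spans the hairpins of miR-670 and miR-129-2 on the same strand, whose mature sequences (RefSeq, GRCm38.p6) are printed because they lie within the changed transcript unit, with the seed, bases 2 to 8, in capitals.
mmu-miR-670-5p: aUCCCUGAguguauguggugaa
mmu-miR-670-3p: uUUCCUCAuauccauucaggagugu
mmu-miR-129-5p: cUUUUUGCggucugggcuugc
mmu-miR-129-2-3p: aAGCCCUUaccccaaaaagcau
No seed is shared among the 4. The mRNA libraries did not measure mature miRNAs, so no level is given for them.

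In the glutathione and antioxidant list, *Gpx6* fell and *Srxn1* rose. *Gpx6*, a glutathione peroxidase, was measured at 459.6, 392, 347, 288, and 258 in WT and 162, 116, 103, 140.5, and 178 in Shank3-HM samples. The groups did not overlap, and the log2 fold change of −1.31 was the largest decrease among the called genes (limma, adjusted p = 0.0126). In WT mice *Gpx6* had a mean of 349 in the striatum and was near 0 in the cortex and hippocampus, with means of 1.23 and 0.202. *Srxn1*, the sulfiredoxin that restores peroxiredoxins, rose by 0.33 (limma, adjusted p = 0.0414), from 2382, 1994, 1992, 2237, and 2089.8 to 2559, 2519, 2601, 3075, and 2741, and passed in 2 of the 10 fits that left out a sample. Of 49 genes, 7 were higher and 2 were lower at an unadjusted p under 0.05 (14.3% and 4.08%, against 4.02% and 3.42% of all genes), and the median was 0.03.

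*Gstp2* had the most extreme log2 difference among the genes just outside the threshold, −3.80 (limma, adjusted p = 0.0592). Its values were 59.8, 234, 87.1, 109, and 121 in WT and 1.86, 5.02, 77.8, 3.33, and 4.50 in Shank3-HM samples. Shank3-HM replicate 3 overlapped the WT samples, and without it the adjusted p was 0.00347. *Gstp2* is nearly identical to its neighbour *Gstp1*, 2299 bases away, so that reads can be divided between them and its value is uncertain. The sum of both genes was 2606 ± 111 (SD, n = 5) in WT and 2964 ± 226 (SD, n = 5) in Shank3-HM mice.

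*Scarb1*, the HDL receptor, rose by 0.33 (limma, adjusted p = 0.0414), with values of 1053, 1013, 998, 1067, and 1068 in WT and 1190.5, 1265, 1394, 1392, and 1316 in Shank3-HM samples. *Plekha2*, a phosphoinositide-binding adaptor, rose by 0.71 (limma, adjusted p = 0.016), and *Irak3*, an inhibitor of Toll-like and interleukin-1 receptor signalling, by 0.77 (adjusted p = 0.0221). *Plk5*, a polo-like kinase of neurons, fell from 749, 813, 697, 753, and 728 to 596, 561, 548, 639, and 481, with a log2 fold change of −0.41 (limma, adjusted p = 0.0221). *Tagln*, an actin-binding protein of smooth muscle, rose from 231, 307, 239, 253, and 228 to 376, 414, 402, 394, and 339, by 0.62 (limma, adjusted p = 0.0221). Of the 10 fits that left out a sample, *Scarb1* passed in 1, *Tagln* in 3, *Irak3* and *Plk5* in 4 each, and *Plekha2* in 6. *Tagln* is also a mural cell marker. Of the 19 tested mural and fibroblast markers, 2 were higher and 0 were lower at an unadjusted p under 0.05 (10.5% and 0%, against 4.02% and 3.42% of all genes), with a median of 0.01 (−0.05 to 0.06 over the alternatives) and summed levels of 8873 to 10566 in WT and 8913 to 11037 in Shank3-HM samples.

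*Dmkn*, the secreted protein dermokine, rose by 0.63 (limma, adjusted p = 0.0464), from 389, 295, 300.1, 255, and 289 to 476, 378, 519, 469.7, and 510.4. It was the one higher gene whose groups overlapped, Shank3-HM replicate 2 lying below WT replicate 1, and it passed in 2 of the 10 fits that left out a sample. The adjacent gene *Sbsn*, 7621 bases away on chromosome 7, had a log2 difference of 0.40 and did not pass (limma, adjusted p = 0.0536). *Scrt2* and *Srxn1*, both higher in Shank3-HM mice, are also neighbours, 9713 bases apart on chromosome 2. Neighbouring pairs were noticed after the values were seen.

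**Figure D3:**
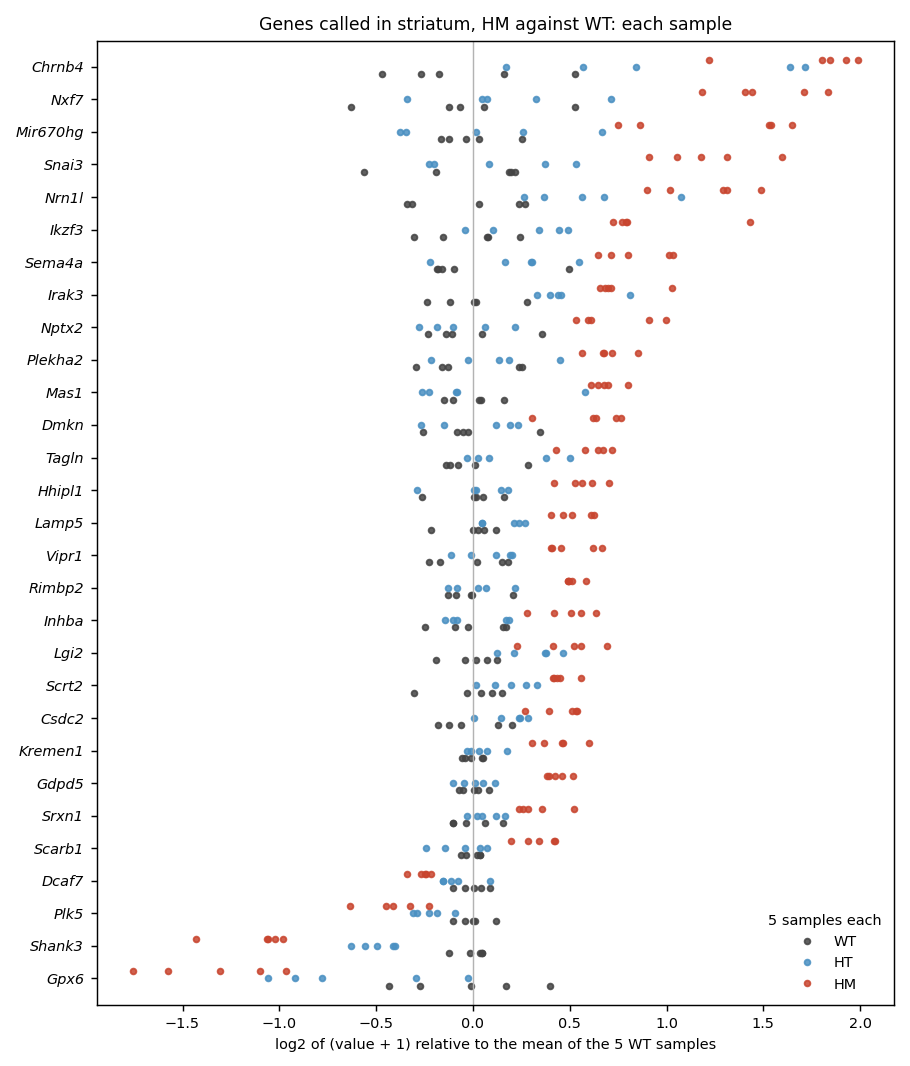
Log2 of (value + 1) relative to the mean of the 5 WT samples (horizontal axis) for 29 of the 30 called genes (vertical axis), with each point 1 sample and 5 samples per genotype. The red Shank3-HM points lie to the right of all grey WT points for 24 genes and to the left for *Shank3*, *Gpx6*, *Plk5*, and *Dcaf7*, while blue Shank3-HT points mostly lie among or near the WT points.

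The genes just outside the threshold, by p, were *Mpp3* (adjusted p = 0.0511 by limma), *Gm21955*, *Sbsn*, *Jph4*, *Stc1*, *Tead3*, *Gstp2*, *Prkab2*, *Nfatc2*, and *Zfp281* (adjusted p = 0.0669), and the last inside was *Dcaf7*. *Mpp3*, a membrane-associated guanylate kinase scaffold, had a log2 difference of 0.45, and *Jph4*, a junctophilin that ties the endoplasmic reticulum to the plasma membrane in neurons, one of −0.26. For *Jph4* all 5 Shank3-HM samples (11302, 10256, 10858, 10427, and 9747) were below all 5 WT samples (12778, 12724, 12223, 12696, and 12549). *Stc1*, the secreted stanniocalcin, differed by −0.94.

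The markers of spiny projection neurons gave no call. *Drd1*, *Drd2*, *Adora2a*, *Ppp1r1b*, *Pde10a*, *Penk*, and *Tac1* had log2 differences of 0.14, 0.02, −0.20, 0.05, 0.05, −0.12, and 0.24, with limma adjusted p values from 0.46 to 0.983. WT replicate 5 was the lowest WT sample for each of these 7 genes. Without it the differences were 0.08, −0.06, −0.28, −0.02, −0.04, −0.21, and 0.22, with limma adjusted p values from 0.327 to 0.973, so that those of *Drd2*, *Ppp1r1b*, and *Pde10a* changed sign. Of the 51 genes of spiny neuron signalling, none passed, and 4 were higher and 2 were lower at an unadjusted p under 0.05 (7.84% and 3.92%, against 4.02% and 3.42% of all genes). *Rgs4*, a regulator of G protein signalling, had the smallest p of this list, with values of 21324, 22206, 21130.5, 19685, and 14706 in WT and 28978, 25449.8, 27015, 28513, and 27777 in Shank3-HM samples, a log2 difference of 0.49, and an adjusted p of 0.124 by limma, which became 0.39 and 0.197 without WT replicate 5. The GABA-synthesizing enzyme genes *Gad1* and *Gad2* differed by 0.21 and 0.22 (limma, adjusted p = 0.11 and 0.352), with all 5 Shank3-HM samples above all 5 WT samples for both. None of 30 GABA and inhibitory synapse genes passed, with 4 higher and 2 lower at an unadjusted p under 0.05 (13.3% and 6.67%).

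Among the other function lists, none of 31 genes of the glucocorticoid response passed, but 13 were higher and 1 was lower at an unadjusted p under 0.05 (41.9% and 3.23%, against 4.02% and 3.42% of all genes), 29 of 31 differences were above 0, and the list median was 0.22, with a range of 0.14 to 0.29 over the alternatives. *Ddit4*, a stress-induced inhibitor of mTORC1, was measured at 841, 939, 806, 861, and 807 in WT and 1399.8, 1260.4, 1279.6, 1049, and 992 in Shank3-HM samples. The groups did not overlap, and the log2 difference was 0.48 (limma, adjusted p = 0.205). *Nfkbia*, the inhibitor of NF-kappaB, and *Tob2*, an antiproliferative factor, differed by 0.44 and 0.33 (limma, adjusted p = 0.191 and 0.16). The median of the same list was 0.17 in both the cortex and the hippocampus of Shank3-HM against WT mice, and 0.09 in the Shank3-HT striatum, which was compared with the same WT samples.

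None of the 79 cytosolic ribosome genes passed, with 9 higher and 0 lower at an unadjusted p under 0.05 (11.4% and 0%, where all genes gave 4.02% and 3.42%). Of the 79 differences, 65 were above 0, and the median was 0.07, with a range of 0.02 to 0.09 over the alternatives. Of 64 respiratory chain genes, 0 passed, 3 were higher and 0 were lower (4.69% and 0%), and the median was 0.03. Potassium channel (61 genes) and calcium handling (50 genes) lists had no call, with medians of 0.07 and 0.01. In the actin list (44 genes), *Tagln* passed, and 7 were higher and 4 were lower at an unadjusted p under 0.05 (15.9% and 9.09%). *Tpm1* and *Marcks* of this list differed by 0.33 and −0.31, both with limma adjusted p values near 0.07 (0.0669 and 0.0679). In the cholesterol list (41 genes), *Scarb1* passed, and 4 were higher and 0 were lower (9.76% and 0%), among them *Fdft1* with a log2 difference of 0.21 (limma, adjusted p = 0.153). Of 52 inflammatory signalling genes, *Irak3* passed, with 5 higher and 1 lower (9.62% and 1.92%).

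**Figure D4:**
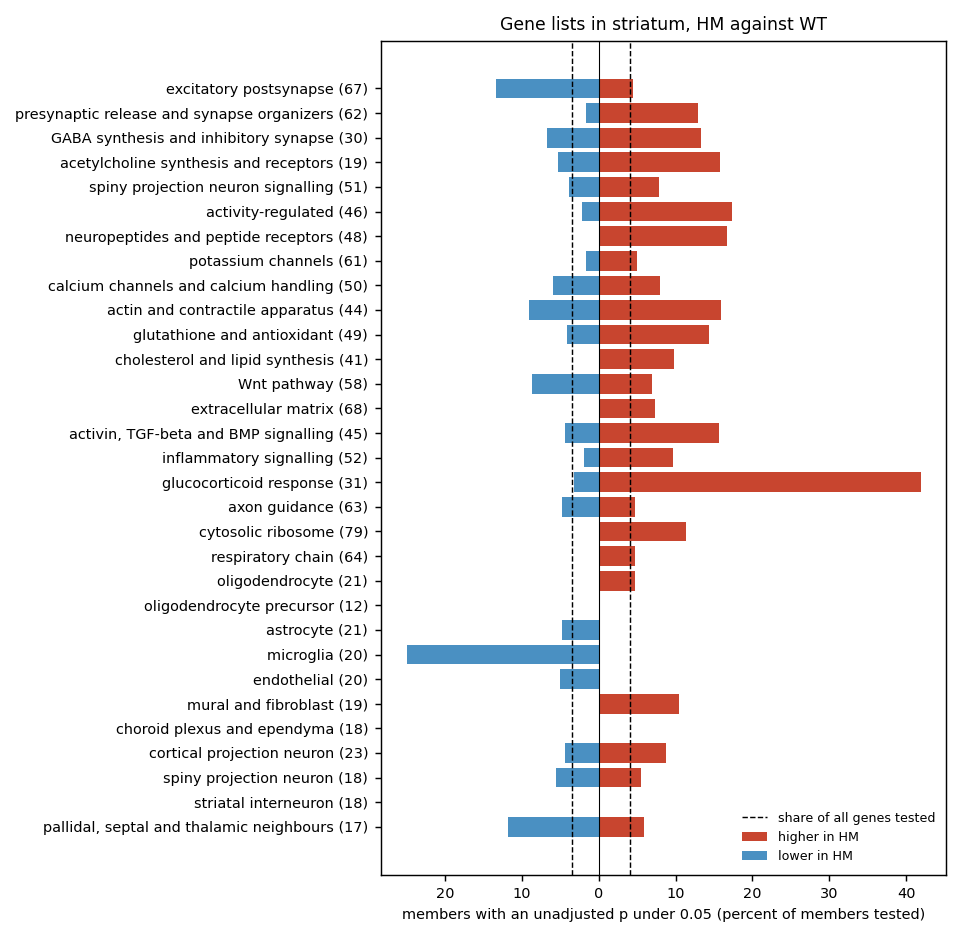
Share of the tested members of each gene list (vertical axis, number tested in parentheses) with an unadjusted limma p under 0.05, higher (right) or lower (left) in Shank3-HM striatum, in percent (horizontal axis). Dashed lines mark the shares over all 16482 genes, 4.02% and 3.42%, and the glucocorticoid response list reaches 41.9% on the right.

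Markers of other cells gave 2 calls, *Lamp5* and *Tagln*. Of 20 microglia markers, 5 were lower and 0 were higher at an unadjusted p under 0.05 (25% and 0%, where all genes gave 3.42% and 4.02%). Their median was −0.10 (−0.13 to −0.06 over the alternatives), with summed levels of 20026 to 22818 in WT and 19083 to 20773 in Shank3-HM samples. *Itgam* and *P2ry12* differed by −0.21 and −0.17 (limma, adjusted p = 0.468 and 0.581). The microglia median was also below 0 in the cortex (−0.12) and hippocampus (−0.08) of Shank3-HM against WT mice. In the striatum, the 21 oligodendrocyte markers had a median of 0.20 (0.10 to 0.25 over the alternatives), with 1 member at an unadjusted p under 0.05. Their summed level was 215809 to 284861 in WT and 237949 to 363339 in Shank3-HM samples. The 12 oligodendrocyte precursor, 21 astrocyte, 20 endothelial, and 18 interneuron markers had medians of 0.04, −0.003, −0.09, and 0.02. Without WT replicate 5, 2 named markers that had not passed did so. *Id4* of the astrocyte list had a log2 difference of −0.50 (limma, adjusted p = 0.0138), against −0.41 and 0.142 with all samples, and *Cux2* of the cortical list one of 0.55 (adjusted p = 0.044), against 0.39 and 0.512. The 17 markers of pallidal, septal, and thalamic neighbours had a median of −0.22, which became −0.08 without WT replicate 5, and the 18 choroid plexus and ependymal markers one of 0.08, with a range of −0.09 to 0.24 over the alternatives. No marker of these lists was at 0 in all 10 samples. The part of any of these cell types in the called genes was not tested.

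To ask whether the same genes responded in heterozygotes, the Shank3-HT values are set beside those of Shank3-HM mice. Both were compared with the same WT samples. In Shank3-HT striatum, 1 gene passed (0.00607% of those tested), *Shank3*, with a log2 fold change of −0.50. It no longer passed when any 1 of the Shank3-HT samples, or any 1 of WT replicates 1 to 4, was left out, where the log2 difference was −0.52 to −0.47 and the limma adjusted p 0.0615 to 0.257. At an unadjusted p under 0.05, 1224 genes (7.43%) were found. None of the 29 other genes had a Shank3-HT adjusted p under 0.05, the lowest being 0.566. Of the 26 higher genes, 7 had a Shank3-HT unadjusted p under 0.05 and 24 had a Shank3-HT mean above the WT mean, but they were chosen against the same WT samples, so that these counts are a description. For the 26 higher genes the Shank3-HT log2 difference ranged from −0.06 to 1.03 with a median of 0.11 beside a Shank3-HM median of 0.62. The genes were chosen for their Shank3-HM values, so that these medians are a description and not a comparison of the genotypes. For *Gdpd5*, *Kremen1*, *Nxf7*, and *Nptx2*, the Shank3-HT differences were 0.01, 0.05, 0.21, and −0.04. For *Chrnb4*, *Nrn1l*, *Irak3*, *Lgi2*, and *Gpx6*, they were 1.03, 0.61, 0.50, 0.31, and −0.58. The Shank3-HT values of *Chrnb4* were 38.5, 17.8, 13.3, 21.8, and 40.7, so that 2 of 5 samples lay within the range of Shank3-HM mice and the other 3 did not.

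To ask whether the changes differed from those of other regions, the Shank3-HM effect was compared across regions in 1 limma fit. The labels do not tie regions to animals, and the regions of a genotype may come from the same mice, which this fit does not take into account. In the cortex 2 of 16507 genes passed between Shank3-HM and WT mice (0.0121%), and in the hippocampus 1 of 16571 (0.00603%). Of the 29 genes beside *Shank3*, 26 were tested in the cortex and 24 in the hippocampus, and 4 (*Gdpd5*, *Plekha2*, *Plk5*, and *Dcaf7*) and 2 (*Lgi2* among them) had an unadjusted p under 0.05 there, as did 5.49% and 4.73% of all genes tested in these regions. The median log2 difference of the higher genes was 0.04 in the cortex and 0.01 in the hippocampus, against 0.62 in the striatum, where they were chosen. The effect itself differed between striatum and cortex for 8 of 16482 genes (0.0485%) and between striatum and hippocampus for 12 (0.0728%). Of the called genes, *Rimbp2*, *Nptx2*, *Hhipl1*, and *Csdc2* were among both sets, and *Nxf7*, *Plekha2*, *Srxn1*, *Mas1*, and *Dcaf7* passed against the hippocampus and not against the cortex. Whether the 2 contrasts differed from each other for these genes was not tested. *Nxf7* was below the filter in the hippocampus, with a WT mean of 1.49, so that its difference rests partly on values near 0. For *Csdc2* the difference was 0.52 against the cortex and 0.48 against the hippocampus (limma, adjusted p = 0.0101 and 0.0202), and for *Nptx2* 0.84 and 0.89 (adjusted p = 0.045 and 0.0225).

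These counts were small and moved with the fit. With 1 block for each genotype and replicate number, an alternative chosen after seeing the data, 16 genes differed from the cortex and 11 from the hippocampus. Without WT replicate 5 of the striatum, 20 genes differed from the cortex, without WT replicate 1, 2 did, and 0 did when only the WT and Shank3-HM samples of the 2 regions were fitted, with 747 at an unadjusted p under 0.05. In the cortex samples, the 18 spiny projection neuron markers had a median log2 difference of 0.57 between Shank3-HM and WT mice, and the part of this in the comparison with the cortex was not tested. In WT mice, 13 of the 26 higher genes had their mean in the striatum above that in the cortex and 20 above that in the hippocampus. *Dmkn* had WT means of 306, 13.4, and 18.5 in the striatum, cortex, and hippocampus.

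**Figure D5:**
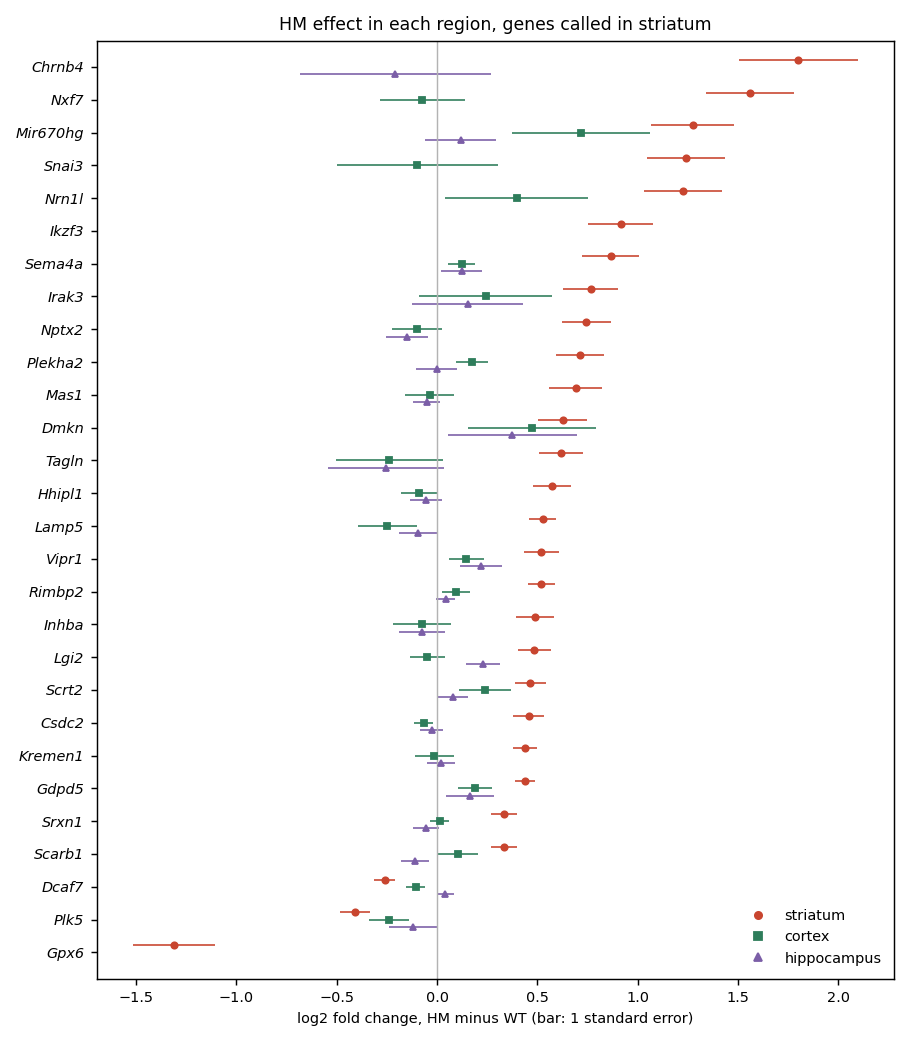
Log2 fold change between Shank3-HM and WT mice with its standard error (horizontal axis) for 28 of the called genes beside *Shank3* (vertical axis), in striatum (circles), cortex (squares), and hippocampus (triangles), where tested. Striatal points lie away from 0 by the choice of the genes, and most points of the other regions lie near 0.

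Promoter windows of RefSeq (GRCm38.p6), from 250 bases before to 50 after a gene start, were at hand for 19 of the 30 called genes and for 11906 of the genes tested. Both strands were searched for 5 motifs. The AP-1 letters TGANTCA were found for 3 of the 19 (15.8%) and for 6.16% of all, the CRE letters TGACGTCA for 0 of the 19 and for 3.44% of all, and the EGR letters GCGNGGGCG for 2 (10.5%) and 12.0%. The E-box CACGTG was found for 2 (10.5%) and 11.2%, and the antioxidant element TGACNNNGC for 3 (15.8%) and 16.5%. Genes with several windows had more chances of a match, and a match is a description only. The genes with AP-1 letters were *Srxn1*, *Dmkn*, and *Mir670hg*, and the 250 bases before 1 start of each are printed, since they are the called genes that shared these letters, which are in capitals.
Srxn1, chr2:152105274-152105523, plus strand: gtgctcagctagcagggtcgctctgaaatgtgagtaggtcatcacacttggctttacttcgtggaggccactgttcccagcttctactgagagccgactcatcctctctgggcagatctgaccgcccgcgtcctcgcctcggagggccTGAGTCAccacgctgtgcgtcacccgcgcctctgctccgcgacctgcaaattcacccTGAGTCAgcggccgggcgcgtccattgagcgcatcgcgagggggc
Dmkn, chr7:30763506-30763755, plus strand: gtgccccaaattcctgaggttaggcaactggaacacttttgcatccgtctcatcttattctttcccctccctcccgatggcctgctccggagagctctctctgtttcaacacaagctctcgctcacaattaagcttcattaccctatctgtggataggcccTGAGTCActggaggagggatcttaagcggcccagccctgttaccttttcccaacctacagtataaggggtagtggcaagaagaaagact
Mir670hg, chr2:94265104-94265353, minus strand: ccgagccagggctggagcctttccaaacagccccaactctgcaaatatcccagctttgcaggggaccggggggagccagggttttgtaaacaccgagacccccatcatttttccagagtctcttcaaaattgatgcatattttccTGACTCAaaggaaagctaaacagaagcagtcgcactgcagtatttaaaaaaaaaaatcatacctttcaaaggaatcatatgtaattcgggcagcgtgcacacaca
The first base of the match lay 102 and 45 bases before the start in *Srxn1*, 89 in *Dmkn*, and 105 in *Mir670hg*. No AP-1 match overlapped a match of the letters TGACNNNGC. Other forms of the antioxidant element were not searched, so that an overlap with them is not excluded.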

How the data were processed

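mRNA of striatum, cortex, and hippocampus was measured in 45 samples (TruSeq Stranded mRNA libraries). The authors quantified transcripts with Salmon, summed them per gene with tximport, and deposited signal values, that is, estimated counts normalized with DESeq2. The submitters' processing notes name GRCm38, Salmon 1.1.0, R 3.6.2, and DESeq2 1.26.0, while the methods of the paper name other R and DESeq2 versions. Sequencing depth is not known. Normalized totals were 28221128 to 29568983 in striatum. Whole reads could not be recovered: the best single step per sample put 12.4% to 28.0% of low values within 0.05 of a whole multiple, where any given step would put 10% there by chance. A count model was therefore not used.

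Genes whose mean over the 15 striatum samples was 10 or more were kept and their values taken as log2(value + 1), on which scale fold changes of low genes are understated. The 3 genotypes were fitted together with limma 3.58.1 in R 4.3.3 (lmFit, eBayes with an intensity trend), and p values were adjusted by Benjamini-Hochberg over all genes kept and called at 0.05. Differences between regions came from 1 fit of all 9 groups. *Shank3* was also tested by a two-sided exact permutation test. The limma steps were tested on simulated data. Gene symbols were matched through GENCODE M21 for 18120 of 18135 genes. The rule for named genes took *Shank3*, all called genes, the 10 next by p, the 3 smallest p values per function list, 2 smallest p values and 2 highest means per cell type list, 7 spiny neuron genes, and the other SHANK and HOMER genes. Of these, 1 called gene and 1 other gene are not reported here, and counts over all genes include them.

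The comparison, gene lists, and tests were chosen with earlier results of these data known, and some list members were taken from genes the study had found changed in the same samples, so that their counts are no independent evidence. Lists are described by counts and medians, without a test. Alternatives were the intensity trend, quantile normalization, filters, pseudocounts, the samples fitted, array weights, robust empirical Bayes, a replicate block, and leaving out each sample. Python 3.11.15, numpy 2.4.6, pandas 2.3.3, and matplotlib 3.10.9 were used.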

Additional observations from a re-analysis of the deposited data

Results flagged for a closer look

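Of the 246 groups of 5 samples examined (123 named genes, each in WT and Shank3-HM striatum), 22 (8.94%) held a sample far from the other 4 by Dixon's criterion, which chance gives in about 1 in 20 groups. In 8 of the 22 that sample was WT replicate 5. It was low for *Tpm1* (8139 against 8856 to 9052 in the other 4), *Coch* (1860.1 against 2235 to 2333 in the other 4), *Adora2a* (7746 against 10017 to 10338 in the other 4), *Pde10a* (43558 against 58282 to 59424 in the other 4), *Drd1* (7318 against 8758 to 9122 in the other 4), *Drd2* (6469 against 8203 to 9008 in the other 4). It was high for *Sema4a* (883 against 551 to 586) and *Homer2* (974 against 537 to 601). Other WT samples stood apart for *Zfp281* (replicate 1 at 1282, the others at 1175 to 1181) and *Kdr* (replicate 4 at 333, the others at 393 to 421).

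A Shank3-HM sample was above the other 4 for *Rimbp2* (replicate 2 at 6183, the others at 5789 to 5889), *Scrt2* (replicate 2 at 1662, the others at 1506 to 1544), *Ikzf3* (replicate 1 at 161, the others at 98.6 to 104), *Irak3* (replicate 4 at 105, the others at 81.3 to 84.6), *Gstp2* (replicate 3 at 77.8, the others at 1.86 to 5.02). A Shank3-HM sample was below the other 4 for *Shank3* (replicate 5 at 4569, the others at 5883 to 6242), *Chrnb4* (replicate 5 at 28.6, the others at 43.3 to 49.4), *Sbsn* (replicate 5 at 678, the others at 844 to 895), *Efnb2* (replicate 3 at 2105, the others at 2275 to 2318), *Enpp6* (replicate 4 at 303, the others at 421 to 470.2), *Slc1a2* (replicate 1 at 76616, the others at 92553 to 97150.0), *P2ry12* (replicate 2 at 1095, the others at 1211 to 1247). The 12 Shank3-HM cases were spread over all 5 replicates. For the called genes among them, all 5 Shank3-HM samples still lay on one side of all 5 WT samples.

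The Shank3-HM effect differed between striatum and cortex (limma interaction, Benjamini-Hochberg adjusted p over 16482 genes) for *Rimbp2* (difference of log2 fold changes 0.43, adjusted p = 0.045), *Nptx2* (difference of log2 fold changes 0.84, adjusted p = 0.045), *Hhipl1* (difference of log2 fold changes 0.66, adjusted p = 0.0153), *Csdc2* (difference of log2 fold changes 0.52, adjusted p = 0.0101), *Mpp3* (difference of log2 fold changes 0.52, adjusted p = 0.0372), *Ackr1* (difference of log2 fold changes 0.47, adjusted p = 0.0153). The Shank3-HM effect differed between striatum and hippocampus (limma interaction, Benjamini-Hochberg adjusted p over 16482 genes) for *Rimbp2* (difference of log2 fold changes 0.48, adjusted p = 0.0202), *Nxf7* (difference of log2 fold changes 2.26, adjusted p = 0.0312), *Nptx2* (difference of log2 fold changes 0.89, adjusted p = 0.0225), *Hhipl1* (difference of log2 fold changes 0.63, adjusted p = 0.0225), *Plekha2* (difference of log2 fold changes 0.71, adjusted p = 0.0446), *Csdc2* (difference of log2 fold changes 0.48, adjusted p = 0.0202), *Srxn1* (difference of log2 fold changes 0.39, adjusted p = 0.0414), *Mas1* (difference of log2 fold changes 0.74, adjusted p = 0.0466), *Dcaf7* (difference of log2 fold changes −0.30, adjusted p = 0.0418), *Mpp3* (difference of log2 fold changes 0.55, adjusted p = 0.0202), *Necab1* (difference of log2 fold changes −0.78, adjusted p = 0.0202), *Tpm1* (difference of log2 fold changes 0.40, adjusted p = 0.0376). The first value is the striatal minus the other effect. *Mpp3*, *Ackr1*, *Tpm1*, and *Necab1* did not pass in striatum alone. *Nxf7* was near 0 in the hippocampus (WT mean 1.49) and below the filter there, so that its difference rests partly on values near 0. Each group has 5 samples.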

How the results depend on the processing

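For Shank3-HM against WT striatum, where 30 genes passed, a mean of 100 or more (27), quantile normalization (31), keeping all genes (29), pseudocounts of 0.1 (30) and 10 (30), a fit of the 2 groups alone (36), robust empirical Bayes (33), and the fit without Shank3-HT replicate 5, added after seeing the data (31), stayed within 1.5 times. Without the intensity trend 18 genes passed, and with array weights 53 did. When 1 sample was left out, the count ranged from 12 (without Shank3-HM replicate 2) to 33 (without Shank3-HM replicate 1), and it was also over 1.5 times away without WT replicates 1 (19), 3 (19), and 4 (18). Quantile normalization and the fit without WT replicate 5 gave 23 higher and 8 lower genes, against 26 and 4. No value of a called gene changed sign.

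For Shank3-HT against WT striatum (1 gene), 0 genes passed without the trend, without a filter, and with a pseudocount of 0.1 (1158, 1305, and 1217 at an unadjusted p under 0.05), and 0 to 2 did in leave-one-out fits. The single call was lost without any one of Shank3-HT replicates 1 to 5 or WT replicates 1 to 4. For the difference from the cortex (8 genes), 5 passed without the trend, 13 with a mean of at least 100, 15 with a pseudocount of 10, 15 with array weights, and 0 in the fit of WT and Shank3-HM alone, with 2 (without striatum WT replicate 1) to 20 (without striatum WT replicate 5) in leave-one-out fits. For the difference from the hippocampus (12 genes), 7 passed without the trend, 6 in the fit of WT and Shank3-HM alone, and 29 with array weights, with 2 (without hippocampus WT replicate 1 or striatum WT replicate 1) to 12 in leave-one-out fits. The causes were not tested.

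The replicate numbers were not shown to pair the samples: deviations of same-numbered WT and Shank3-HM samples correlated at −0.05 to 0.14, and 2 of the 5 correlated best with their own number. With the replicate block, 39 genes passed for Shank3-HM (26 of the 30 among them), 1 for Shank3-HT, 15 against the cortex, and 13 against the hippocampus. With 1 block for each genotype and number, added after seeing the data, 16 genes (the 8 among them) differed from the cortex and 11 (all among the 12) from the hippocampus. Same-numbered striatum and other samples of a genotype correlated at −0.11 to 0.20 for the cortex and 0.01 to 0.21 for the hippocampus, with 5 and 8 of 15 pairs over 0.1. Of the 15 striatum samples, 8 correlated best with their own number in the cortex and 10 in the hippocampus. Shared animals between regions thus remain possible, and the main fit across regions does not take them into account. Permuting *Shank3* within pairs as a replicate block left its log2 change at −1.11, with an exact p of 0.0625, the smallest that 5 pairs allow. List medians moved by more than 1 SD of the sample means in 2 cases, both without WT replicate 5: calcium handling (−0.02, from 0.01) and pallidal, septal, and thalamic neighbours (−0.08, from −0.22). Sequencing depth is not known, so that counting error behind low values such as those of *Chrnb4* and *Nrn1l* cannot be given.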
